A study of Homo sapiens with 18 samples.

Results

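ISG15, UBA7, HERC5, HERC6, USP18, MX1, MX2, RSAD2, BST2 and IFI44L are 10 genes of the type I interferon response: ISG15 with enzymes that attach or remove it, and genes that restrict viruses. They were taken by name from the 57500 genes of the count table, by a rule that sets no threshold on their values. The genes and the comparisons were chosen with earlier results of these data known. All 10 passed the filter on low counts that left 16994 genes for testing. RNA-seq was done on 18 libraries of IMR90 human lung fibroblasts, with 3 libraries in each of 6 groups. Prol were proliferating cells and Sen (IR) were cells made senescent by irradiation. The other 4 groups were irradiated and then cleared of mitochondria with the uncoupler CCCP, and received nothing more (Sen (IR) + CCCP), acetate as a source of acetyl groups (Sen (IR) + CCCP + acetate), transfected mitochondrial DNA (Sen (IR) + CCCP + mtDNA) or both (Sen (IR) + CCCP + acetate + mtDNA). According to the study's methods, all the cells overexpressed Parkin, a ubiquitin ligase that directs uncoupled mitochondria to autophagy, acetate was supplied once the mitochondria had been cleared, and mtDNA was transfected late in the culture. No group among the labels received the transfection reagent or another DNA without mtDNA, so the effects of mtDNA and of transfection itself cannot be told apart. The study describes its replicates as independent experiments, while the labels do not say what separates the libraries of a group, so the p-values measure the spread between these libraries.

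DNA in the cytosol is sensed by cGAS, which signals through STING and TBK1 to switch on interferon beta, and the secreted interferon then acts through its receptor and the factor ISGF3, which includes STAT2 and IRF9. ISGF3 binds the interferon-stimulated response element (ISRE) and turns on antiviral genes. ISG15 is a ubiquitin-like protein that is joined to other proteins by the activating enzyme UBA7, the conjugating enzyme UBE2L6 and the ligase HERC5, and is removed again by USP18, which also dampens signalling at the interferon receptor. MX1, MX2, RSAD2 (viperin) and BST2 (tetherin) each block a different step of viral growth, and IFI44L is an interferon-induced gene with a less settled role. DNA sensing of this kind is known to be engaged in senescent fibroblasts.

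The promoters are shown first, as a description. Whether their motifs bear on the levels of the genes was not tested. RefSeq promoter windows of 300 bases, from -250 to 50 around the start on GRCh38.p14, were present for 7 of the 10 genes, with 10 windows in all since MX1 had 3 starts and RSAD2 had 2. USP18, UBA7 and MX2 were not matched. The ISRE was searched on both strands as GAAANNGAAA, and at least 1 match lay in 7 of the 10 windows, belonging to 6 of the 7 genes, where 3.57% of all 35116 windows of this length held one. HERC6 had no match in its window. The stretches with matches are printed 5′ to 3′ on the gene's strand, with the matched letters in capitals. A match on the opposite strand reads as its reverse complement.
ISG15, chr1:1013317-1013436, plus strand, -180 to -61: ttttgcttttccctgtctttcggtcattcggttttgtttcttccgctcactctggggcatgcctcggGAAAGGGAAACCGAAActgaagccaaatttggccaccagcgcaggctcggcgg
HERC5, chr4:88456939-88457058, plus strand, -180 to -61: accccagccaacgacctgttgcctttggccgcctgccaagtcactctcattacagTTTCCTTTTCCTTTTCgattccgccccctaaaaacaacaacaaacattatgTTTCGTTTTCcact
RSAD2, chr2:6877622-6877651, plus strand, of the second start: ctgtttcaacTTTCAGTTTCacatgtggaa
BST2, chr19:17405738-17405767, minus strand: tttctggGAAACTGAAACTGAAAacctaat
IFI44L, chr1:78620274-78620303, plus strand: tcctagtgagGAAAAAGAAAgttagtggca
IFI44L, chr1:78620365-78620394, plus strand: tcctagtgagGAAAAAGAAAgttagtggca

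In ISG15 and BST2 a pair of matches overlapped on the gene's own strand, and in HERC5 an overlapping pair and a single match lay on the opposite strand. The 30 bases around each match of IFI44L were the same. In MX1, 1 match began at position 12 after the first start and another at -196 of the third start, on the opposite strand. The GAS element (TTCNNNGAA), another motif of interferon-responsive promoters, was in 7.66% of all windows, and among these genes in the windows of BST2 and the third start of MX1. In both windows a GAS match overlapped an ISRE match. In GENCODE v44 the ISG15 stretch lies in an intron of longer ISG15 transcripts, the HERC5 stretch is intergenic, the RSAD2 stretch is in an exon of a longer RSAD2 transcript, the BST2 stretch overlaps exons of BISPR and MVB12A on the other strand, and of the IFI44L stretches the first is intronic and the second lies partly in an exon.

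**Figure D1:**
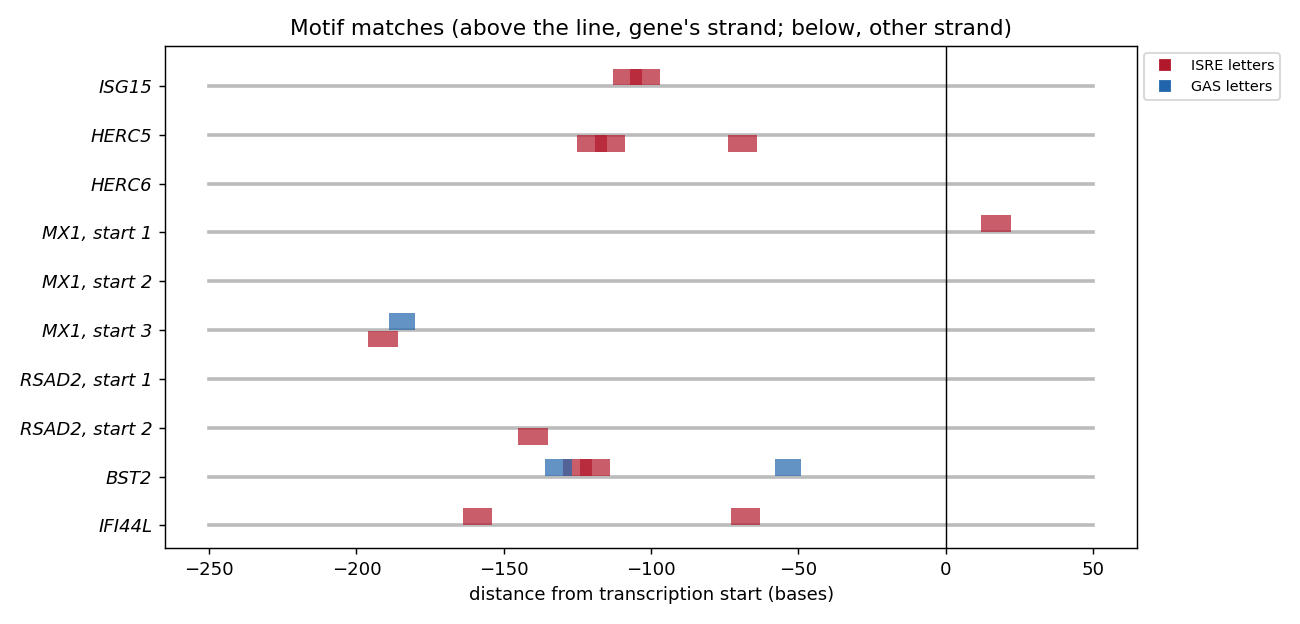
Positions of ISRE letters (red) and GAS letters (blue) in the 10 RefSeq promoter windows, in bases from the transcription start, above the line on the gene's strand and below it on the other strand. ISRE matches lie in 7 windows, upstream of the start in all but the first window of MX1, and the window of HERC6 holds none.

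Total counts per library were 24624886 to 46224280. All 8 fibroblast markers were detected in every group, while summed markers of immune, epithelial and endothelial cells stayed at or below 1.04, 3.36 and 0.964 CPM, the counts scaled by the library's TMM-adjusted size. The summed fibroblast markers were 37050 to 40766 CPM in Prol, 20332 to 25255 in Sen (IR), and 4706 to 6876 in the 4 groups with CCCP. The share of counts on 13 genes encoded by mtDNA was 2.31 to 2.89% in Prol, 1.75 to 2.64% in Sen (IR), and 0.0461 to 0.138% in every CCCP library except replicate 2 of Sen (IR) + CCCP + acetate + mtDNA. That library had 0.237%, against 0.0640 and 0.0624% in replicates 1 and 3, and stood apart in all 10 genes, 2.42-fold (HERC6) to 8.16-fold (BST2) above the mean of the other 2. Only 1.94% of all genes tested differed by more than 2-fold in that way, so results with this group are given with and without that library. It was picked out by these same genes, so p-values from fits without it describe its weight and are not independent tests. The main fit shares the spread of each gene over all 18 libraries, so that library also enters the p-values of comparisons without its group. In fits with only the groups compared, it enters only where its group is compared. In bulk RNA, fewer cells that express a gene and less RNA per cell cannot be told apart.

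The plot of levels in each library shows the shape shared by most of the genes. They were low in Prol, higher in Sen (IR), lower again after mitochondria were cleared, little altered by acetate alone and highest after mtDNA, with intermediate levels where mtDNA was given with acetate. UBA7 followed another order, with its highest level in Prol. Across the 18 libraries, the log2 levels of the other genes correlated with the mean of the remaining members at r = 0.869 (HERC5) to 0.991 (MX1), and UBA7 at r = 0.487, as a description of libraries that share 6 conditions.

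**Figure D2:**
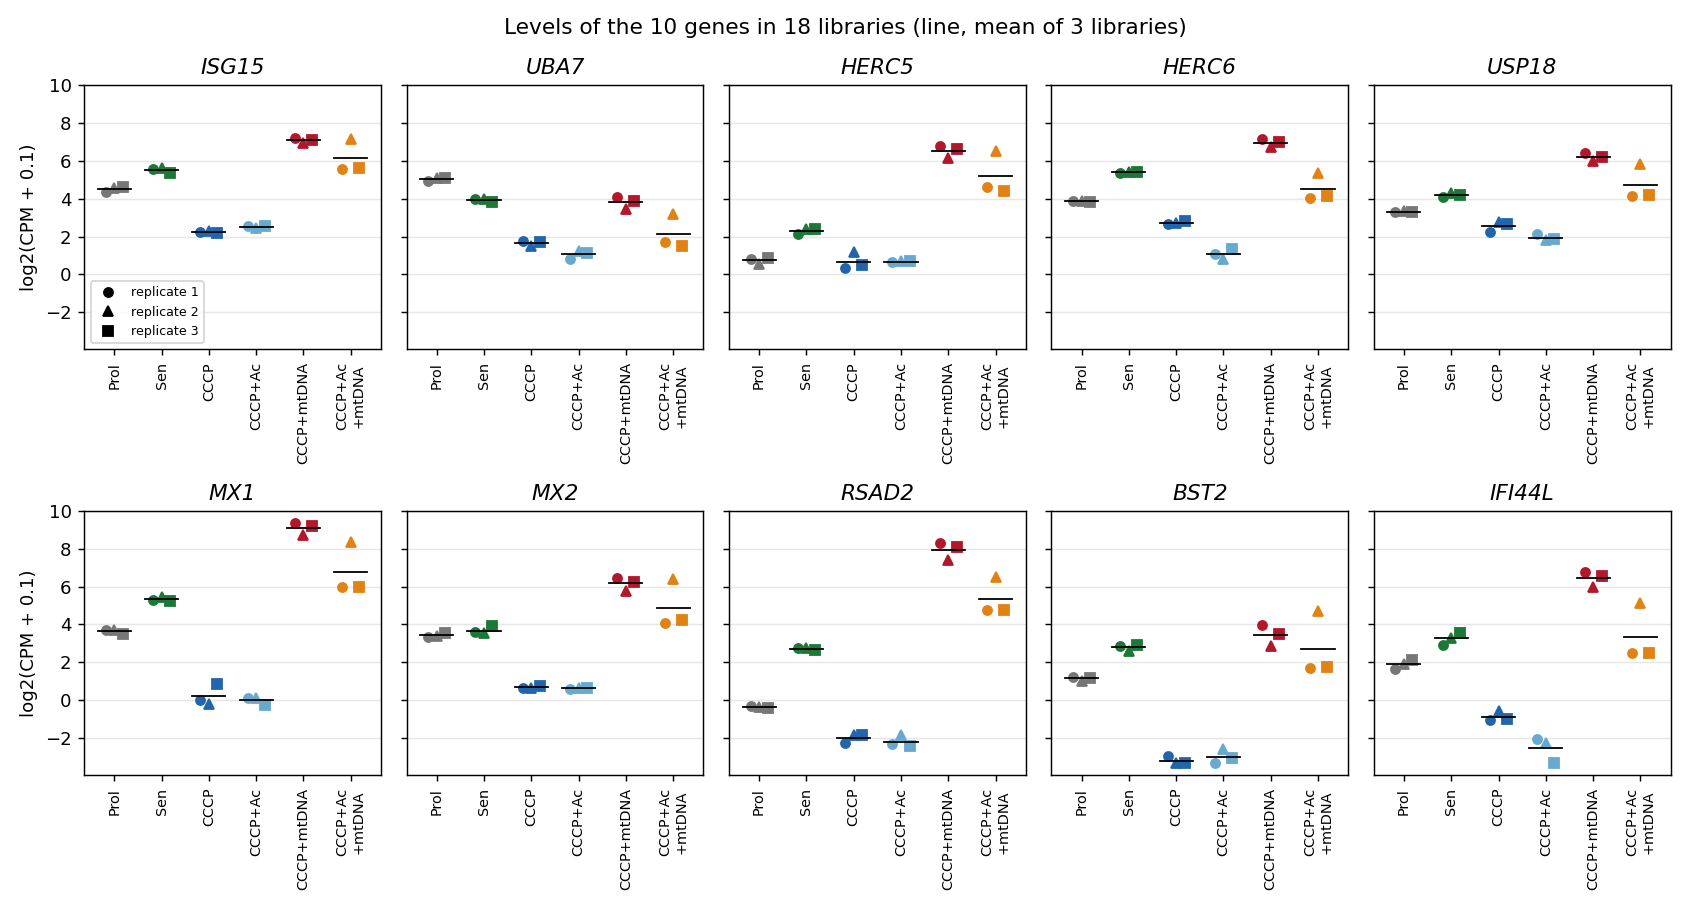
Levels of the 10 genes as log2(CPM + 0.1) in each of 18 libraries, by group, with the mean of 3 libraries as a line and the replicate number as the symbol (Ac, acetate; groups with CCCP are irradiated). The group means of all genes except UBA7 peak in Sen (IR) + CCCP + mtDNA, and replicate 2 (triangle) of Sen (IR) + CCCP + acetate + mtDNA lies above the other 2 libraries of its group in every panel.

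The first question was how senescence altered the pathway. In Sen (IR) against Prol, 8 of the 10 genes rose and UBA7 fell, at an adjusted p under 0.05 in edgeR's quasi-likelihood test over all genes, where 26.7% of all genes rose and 29.9% fell. The median log2 fold change of the genes was 1.44, and that of all genes was -0.01. ISG15 (chr1:1001138-1014540, plus strand) stood at 20.6, 23.5 and 24.0 CPM in Prol and at 46.8, 48.6 and 40.3 CPM in Sen (IR). The libraries did not overlap, and the log2 fold change was 0.99 ± 0.26 (SE, n = 3; edgeR adjusted p = 0.00298). RSAD2 (chr2:6865557-6898239, plus strand), which makes an antiviral nucleotide, rose from 0.704, 0.666 and 0.649 CPM to 6.66, 6.60 and 6.13 CPM. That 9.62-fold increase was the largest of the 10 (log2 3.27 ± 0.65, edgeR adjusted p = 2.03e-04).

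UBA7 (chr3:49805209-49813953, minus strand), the only enzyme known to activate ISG15, had 30.5, 34.4 and 33.4 CPM in Prol and 16.0, 15.6 and 14.3 CPM in Sen (IR). It was 2.14-fold lower in senescent cells (log2 -1.10 ± 0.21, edgeR adjusted p = 9.88e-05), and every Sen (IR) library lay below every Prol library. MX2, which restricts HIV at nuclear entry, had 10.2 to 11.5 CPM in Prol and 11.4 to 14.9 CPM in Sen (IR) and did not pass the test (edgeR adjusted p = 0.637), although it did with only these groups in the fit (0.0383). HERC6, a relative of HERC5, rose by 1.52 and MX1, the influenza restriction factor, by 1.70 on the log2 scale. HERC5 (1.59), BST2 (1.69), IFI44L (1.36) and USP18 (0.88) also rose in log2 fold change, but each lost its call when single libraries were left out. The edgeR adjusted p was then 0.0564 to 0.0736 for HERC5 (without any of the 3 Prol libraries or Sen (IR) replicate 2 or 3), 0.0505 to 0.0521 for BST2 (without Prol replicate 2 or 3), 0.0503 to 0.0509 for USP18 (without Prol replicate 3 or Sen (IR) replicate 2) and 0.0585 to 0.0998 for IFI44L (without the libraries named for HERC5). DESeq2 also left IFI44L uncalled (adjusted p = 0.0557). With Prol replicate 3 left out, 5 of the 10 genes were called. Over all genes, 9628 of 16994 were called in either direction with all libraries, and 8827 to 9573 genes with single libraries left out.

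Every one of the genes was lower after mitochondria were cleared. In Sen (IR) + CCCP against Sen (IR), all 10 fell in edgeR's test, where 31.3% of all genes fell. The median log2 fold change was -3.18 against 0.03 over all genes. No library of one group overlapped the other, which was not counted over all genes. The smallest falls were those of HERC5 (-1.61) and USP18 (-1.62), the ligase and the protease for ISG15. The summed fibroblast markers, also lower after CCCP (6582 to 6876 CPM against 20332 to 25255), moved with this comparison, and their part in it was not tested.

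BST2 (chr19:17402939-17405630, minus strand), the tether that holds budding virions at the cell surface, had 302, 154 and 220 reads in the Sen (IR) libraries and 1, 0 and 0 reads after CCCP. The ratio of the summed counts, scaled for library size, was 713 (95% interval 128 to 28203), an interval that covers counting error only. MX1 (chr21:41420020-41470071, plus strand) went from 38.6, 43.6 and 37.5 CPM to 0.919, 0.782 and 1.70 CPM, a 36.7-fold fall (log2 -5.20 ± 0.64, edgeR adjusted p = 2.59e-07). ISG15 went from 45.2 ± 4.39 to 4.61 ± 0.198 CPM (SD, n = 3), a 9.76-fold fall. RSAD2 fell 40.7-fold, to 4, 7 and 5 reads. The fall of HERC5 lost its call without Sen (IR) replicate 3 (edgeR adjusted p = 0.0529) or Sen (IR) + CCCP replicate 1 (0.0655).

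For most of the genes the levels after CCCP were also below those of cells that had never senesced. Against Prol, 7 of the 10 genes were lower in Sen (IR) + CCCP and 0 higher in edgeR's test (0 higher also at an unadjusted p under 0.05 and by DESeq2), where 34.1% of all genes were lower. MX2 had 10.2 to 11.5 CPM in Prol and 1.44 to 1.60 CPM after CCCP (log2 -2.83 ± 0.57). HERC5, with 1.37 to 1.71 CPM in Prol and 1.17 to 2.14 after CCCP, had a log2 difference of -0.02 ± 0.72. USP18 (log2 -0.74, edgeR adjusted p = 0.0583) and RSAD2 (log2 -2.08, edgeR adjusted p = 0.206) were not called, although no library of theirs overlapped. Both were called lower with no filter on low counts and with only these groups in the fit, and RSAD2 also in DESeq2 (adjusted p = 7.52e-04).

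Whether acetate alone brought these genes back was the next comparison. Of the 10, HERC6 fell with acetate and none rose in edgeR's test against Sen (IR) + CCCP (0 rose also at an unadjusted p under 0.05 and by DESeq2), where 28.3% of all genes fell. HERC6 (chr4:88378739-88443097, plus strand) had 6.35, 6.38 and 6.85 CPM without acetate and 2.00, 1.65 and 2.43 CPM with it. The fall was 3.19-fold (log2 -1.67 ± 0.32, edgeR adjusted p = 1.10e-04). Its neighbour HERC5 (chr4:88457119-88506163, plus strand) had 1.17, 2.14 and 1.31 CPM without and 1.49, 1.52 and 1.51 CPM with acetate, which overlapped.

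ISG15 was at 4.60, 4.82 and 4.42 CPM without and 5.77, 5.33 and 5.79 CPM with acetate. These libraries did not overlap, but the log2 difference of 0.28 ± 0.37 did not pass edgeR's test in the fit of all 18 libraries (adjusted p = 0.547). IFI44L had 14, 23 and 11 reads without acetate and 4, 5 and 0 with it. It was not called in edgeR (log2 -2.59, adjusted p = 0.271) and was called lower in DESeq2 (adjusted p = 0.00467). With no filter on low counts, or with only these groups in the fit, 5 genes were called, ISG15 higher (edgeR adjusted p = 0.0190 and 0.0370) and UBA7, HERC6, USP18 and IFI44L lower. The median log2 fold change of the 10 genes with acetate was -0.31, against 0.01 over all genes, and BST2 and RSAD2 were too low in both groups (at most 8 reads in a library) for a difference to be detectable at this depth.

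All 10 genes were higher after transfection of mtDNA. In Sen (IR) + CCCP + mtDNA against Sen (IR) + CCCP, 10 of 10 were higher in edgeR's test, where 10.7% of all genes were higher. Their libraries did not overlap, and the share of all genes without overlap was not counted. The median log2 fold change was 5.74 against 0.00 over all genes. The antiviral effectors rose by 5.61 (MX2) to 10.62 (RSAD2) on the log2 scale, and ISG15 and its enzymes by 2.20 (UBA7) to 5.88 (HERC5). No call in this comparison was lost when any single library of either group was left out. The summed fibroblast markers were 5936 to 6204 CPM with mtDNA and 6582 to 6876 without.

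RSAD2 showed the largest rise that rested on more than a few reads. It had 4, 7 and 5 reads in the Sen (IR) + CCCP libraries and 8562, 4691 and 8514 after mtDNA, or 309, 168 and 275 CPM. The log2 fold change was 10.62 ± 0.57 (edgeR adjusted p = 2.51e-11), and the ratio of summed counts was 1621 (95% interval 998 to 2837). MX1 went from 0.919, 0.782 and 1.70 CPM to 661, 426 and 589 CPM, 515-fold (log2 9.01 ± 0.62, edgeR adjusted p = 7.83e-10). BST2 rose from 1, 0 and 0 reads to 427, 200 and 342 reads, a ratio of summed counts of 1155 (95% interval 207 to 45656). IFI44L (chr1:78619902-78646145, plus strand) rose 190.0-fold, with 0.390 to 0.580 CPM before and 64.0 to 108 CPM after.

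Within the ISG15 cycle, ISG15 itself rose from 4.60, 4.82 and 4.42 CPM to 149, 121 and 137 CPM. This was 29.2-fold (log2 4.87 ± 0.31, edgeR adjusted p = 3.82e-10). HERC5 rose 58.7-fold and HERC6 19.1-fold, so that HERC5 reached 92.6 ± 20.6 CPM and HERC6 124 ± 17.9 CPM (SD, n = 3). USP18 (chr22:18150118-18177397, plus strand) rose 12.6-fold, with 4.71 to 6.69 CPM before and 62.5 to 84.8 CPM after. UBA7 rose least, 4.60-fold, from 3.26, 2.75 and 3.23 CPM to 16.7, 11.1 and 14.6 CPM.

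**Figure D3:**
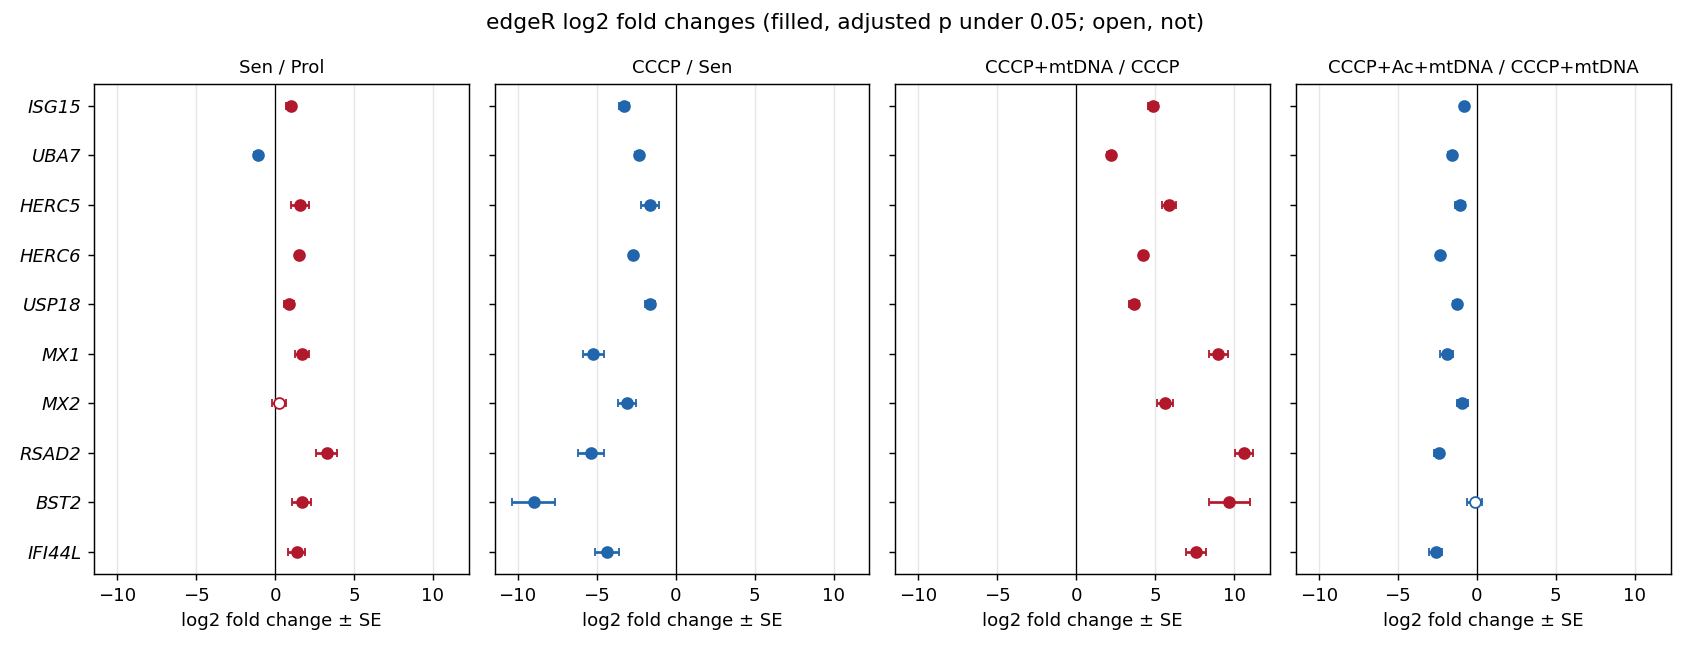
edgeR log2 fold changes with their standard errors for the 10 genes in 4 comparisons (Ac, acetate), red above 0 and blue below it, filled where the adjusted p was under 0.05. All 10 are below 0 after CCCP and above 0 after mtDNA, and the estimates of BST2 in the comparisons with Sen (IR) + CCCP rest on 1 read in that group.

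The levels with mtDNA passed those of senescent cells that still had their mitochondria. Against Sen (IR), 8 of the 10 genes were higher in Sen (IR) + CCCP + mtDNA and 0 lower in edgeR's test (0 lower also at an unadjusted p under 0.05 and by DESeq2), where 35% of all genes were higher, with a median log2 fold change of 2.28. RSAD2 was 38.7-fold and HERC5 19.2-fold above Sen (IR). UBA7 returned to 14.1 ± 2.84 CPM, where Sen (IR) had 15.3 ± 0.919 CPM (log2 -0.12 ± 0.22, edgeR adjusted p = 0.642), and stayed below the 32.8 ± 2.02 CPM of Prol. BST2 had 7.09, 5.91 and 7.57 CPM in Sen (IR) and 15.4, 7.18 and 11.0 CPM with mtDNA, which overlapped (edgeR adjusted p = 0.205). BST2 was called higher with no filter on low counts (3.22e-08) and with only these groups in the fit (edgeR adjusted p = 0.0137).

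The rise with mtDNA was also present where acetate was given. In Sen (IR) + CCCP + acetate + mtDNA against Sen (IR) + CCCP + acetate, 10 of 10 genes were higher in edgeR's test, where 6.57% of all genes were higher. No library overlapped, again without a count over all genes. The median log2 fold change was 4.81. MX1 went from 1.00, 0.969 and 0.734 CPM to 61.7, 325 and 62.0 CPM, 167-fold (edgeR adjusted p = 5.45e-08). UBA7 had the smallest rise, 2.33-fold (edgeR adjusted p = 0.0103). Without replicate 2 of the combination, the log2 fold change of MX1 was 6.12 in place of 7.38. That of UBA7 was 0.54 in place of 1.22 and no longer called (edgeR adjusted p = 0.0722). With all libraries but only the groups compared, UBA7 was also not called (0.0835). The other 9 genes were still higher without replicate 2, where 9.27% of all genes were called in either direction.

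Against Sen (IR) + CCCP, which received neither, 9 of the 10 genes were higher with both treatments, where 30.3% of all genes were higher. UBA7 had 3.26, 2.75 and 3.23 CPM with neither and 3.16, 9.01 and 2.73 CPM with both, which overlapped. Its log2 fold change was 0.63 ± 0.29 (edgeR adjusted p = 0.0660). Without replicate 2 it was -0.03, and without replicate 1 or 3 of the combination it was 0.93 or 0.94 and called (edgeR adjusted p = 0.0100 and 0.00592).

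Where mtDNA was given, acetate went with lower levels. In Sen (IR) + CCCP + acetate + mtDNA against Sen (IR) + CCCP + mtDNA, 9 of the 10 genes fell in edgeR's test and none rose (0 also at an unadjusted p under 0.05 and by DESeq2), where 29.9% of all genes fell, and the median log2 fold change was -1.42 against -0.02 over all genes. In UBA7, HERC6, USP18, MX1, RSAD2 and IFI44L every library with acetate lay below every library without it. How often this held over all genes was not counted. IFI44L and RSAD2 fell most and BST2 was not called. With replicate 2 of the combination left out, all 10 genes fell, with log2 fold changes of -1.46 (ISG15) to -4.01 (IFI44L). Over all genes, 54% were then called in either direction.

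IFI44L had 108, 64.0 and 95.3 CPM with mtDNA alone and 5.53, 34.9 and 5.42 CPM with acetate added. The log2 fold change was -2.61 ± 0.40 (edgeR adjusted p = 9.66e-06), and -4.01 without replicate 2. HERC6 had 139.9, 105 and 128 CPM and 16.5, 41.1 and 17.4 CPM, a fall of 5.06-fold (log2 -2.34 ± 0.20), and -2.86 without replicate 2. ISG15 had 149, 121 and 137 CPM and 47.8, 142 and 49.6 CPM, so that replicate 2 of the combination reached the level of mtDNA alone while the other 2 libraries were well below it. Its fall (log2 -0.78 ± 0.24, edgeR adjusted p = 0.00883) lost its call without replicate 1 or 3 of the combination (0.0723 and 0.0698). BST2 had 15.4, 7.18 and 11.0 CPM and 3.16, 26.0 and 3.22 CPM, with replicate 2 above every library of mtDNA alone. Without that library BST2 fell by 1.80 on the log2 scale (edgeR adjusted p = 1.83e-07).

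The fall of MX2 (log2 -0.92, edgeR adjusted p = 0.0301) was lost without replicate 1 or 3 of either group (0.0733 to 0.176) and in DESeq2 (0.103), and that of HERC5 (log2 -1.05) without replicate 1 of the combination (0.0557). Among the libraries of Sen (IR) + CCCP + mtDNA, replicate 2 was the lowest for all 10 genes, at 0.543 (BST2) to 0.847 (ISG15) of the mean of the other 2. The summed fibroblast markers were 4706 to 5552 CPM with both treatments and 5936 to 6204 with mtDNA alone, and their part in this comparison was not tested. Within the combination, the share of counts on mtDNA-encoded genes was highest in the library with the highest levels of the 10 genes, and its part in that library's levels was not tested. Between groups the share did not follow the levels. It was 0.0461 to 0.0534% with mtDNA alone, 0.114 to 0.136% after CCCP and 0.123 to 0.138% with acetate alone.

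**Figure D4:**
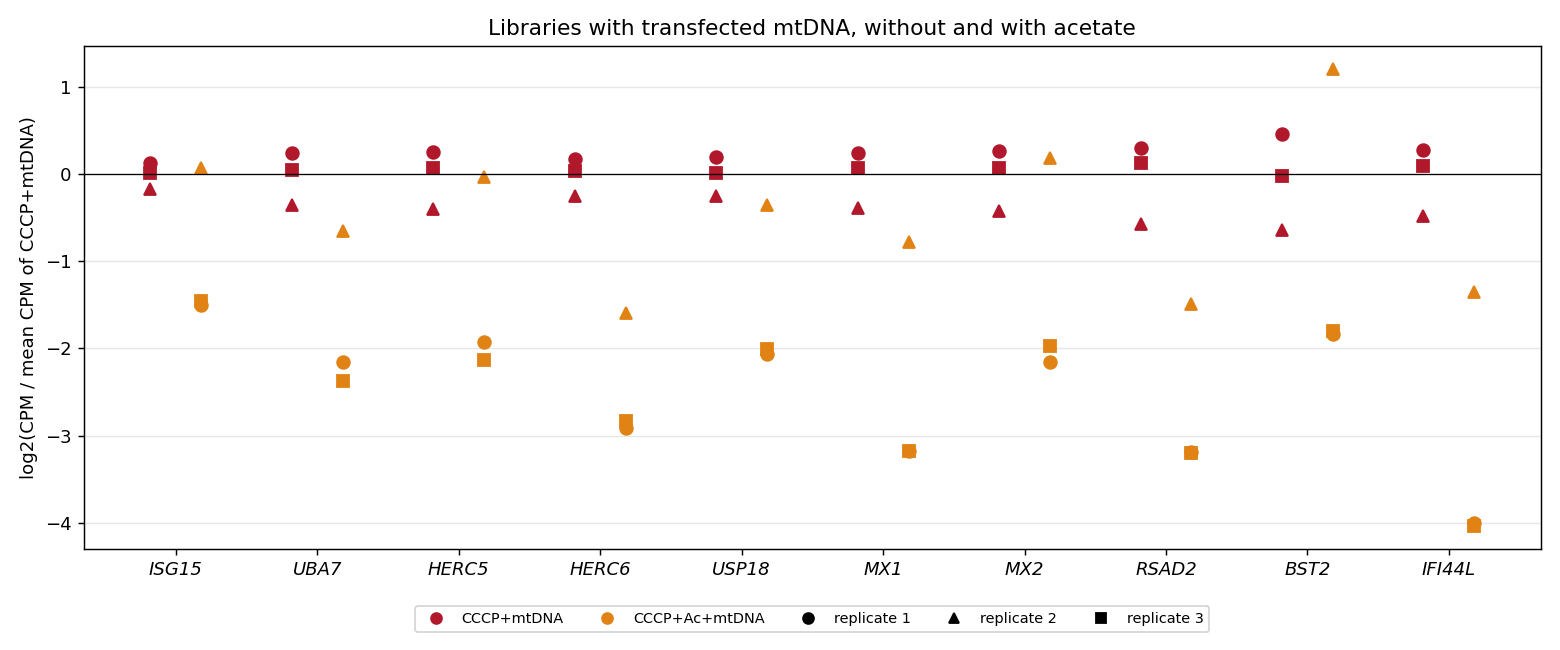
Log2 ratio of each library's CPM to the mean CPM of Sen (IR) + CCCP + mtDNA, for the 3 libraries with mtDNA alone (red) and the 3 with acetate and mtDNA (orange), the symbol giving the replicate. Replicates 1 and 3 of the combination lie close together and below every library of mtDNA alone for all 10 genes, and replicate 2 lies above them, for ISG15, MX2 and BST2 above the mean of mtDNA alone.

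The interaction of acetate and mtDNA asks whether the log2 rise with mtDNA differed when acetate was present. None of the 10 genes passed edgeR's test of it, where 0.659% of all genes did. At an unadjusted p under 0.05 there were 2, ISG15 and UBA7, and DESeq2 called 0. All 10 estimates were below 0, with a median of -0.98 against -0.02 over all genes, but not all were clear of 0. That of IFI44L was -0.01, and up to 0.45 with a library left out, and that of BST2 was -1.55 ± 4.59. ISG15 had -1.05 ± 0.44 (edgeR adjusted p = 0.354). Without replicate 2 of the combination 7 genes passed, ISG15, UBA7, HERC5, HERC6, USP18, MX1 and MX2, with estimates of -1.20 (HERC6) to -2.89 (MX1) on the log2 scale, where 2.30% of all genes did. With no filter on low counts 8 passed, the same 7 and RSAD2, and over all genes 413 passed. BST2 and IFI44L, with at most 3 and 23 reads in a library after CCCP without mtDNA, passed in neither case.

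Set against Sen (IR), the combination left the genes divided. Of the 10, 6 were higher (ISG15, HERC5, USP18, MX1, MX2 and RSAD2) and 2 lower (UBA7 and HERC6) in edgeR's test, where 32.2% of all genes were higher and 34.7% lower. HERC5 was 9.28-fold above Sen (IR) (log2 3.21, and 2.27 without replicate 2 of the combination). HERC6 had 40.7, 42.2 and 42.8 CPM in Sen (IR) and 16.5, 41.1 and 17.4 CPM with both treatments (log2 -0.77 ± 0.20, edgeR adjusted p = 0.00214). Without replicate 2 of the combination, 4 genes were higher (HERC5, MX1, MX2 and RSAD2) and 4 lower (UBA7, HERC6, BST2 and IFI44L). Over all genes, 64.5% were called in either direction in that fit. In the same fit ISG15 had a log2 difference of 0.14 and USP18 of 0.03, neither called. BST2 changed from 0.59 to -1.08 and IFI44L from 0.62 to -0.76. USP18 was also not called without Sen (IR) replicate 1 (edgeR adjusted p = 0.0630), and BST2 and IFI44L were called higher without replicate 1 or 3 of the combination (0.0239 to 0.0441).

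Ratios between related members, taken per library from TPM so that gene length is accounted for, were looked at after the values had been seen and are given with no test. HERC5 stood far below HERC6 before treatment, with a ratio of 0.133 ± 0.0180 in Prol and 0.141 ± 0.0116 in Sen (IR) (SD, n = 3). The ratio was 0.288 ± 0.104 after CCCP, 0.925 ± 0.183 with acetate, 0.899 ± 0.0765 with mtDNA and 1.98 ± 0.630 with both, so HERC5 exceeded HERC6 in all 3 libraries of the combination, replicate 2 included. MX1 over MX2 was 1.77 ± 0.268 in Prol, 4.84 ± 0.983 in Sen (IR), 1.13 ± 0.428 after CCCP and 0.942 ± 0.172 with acetate. With mtDNA it was 11.6 ± 0.254 and with both treatments 5.54 ± 0.440, and these libraries did not overlap. ISG15 over UBA7, the modifier over its activating enzyme, was lowest in Prol at 3.34 ± 0.112. It was 14.3 ± 0.711 in Sen (IR), 7.29 ± 1.01 after CCCP, 13.9 ± 2.71 with acetate, 47.0 ± 5.10 with mtDNA and 79.0 ± 7.75 with both. In TPM, ISG15 was the most abundant of the 10 genes in all 6 groups, at 91.0 in Prol and 733 with mtDNA, where MX1 followed at 330.4 and RSAD2 at 264.

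**Figure D5:**
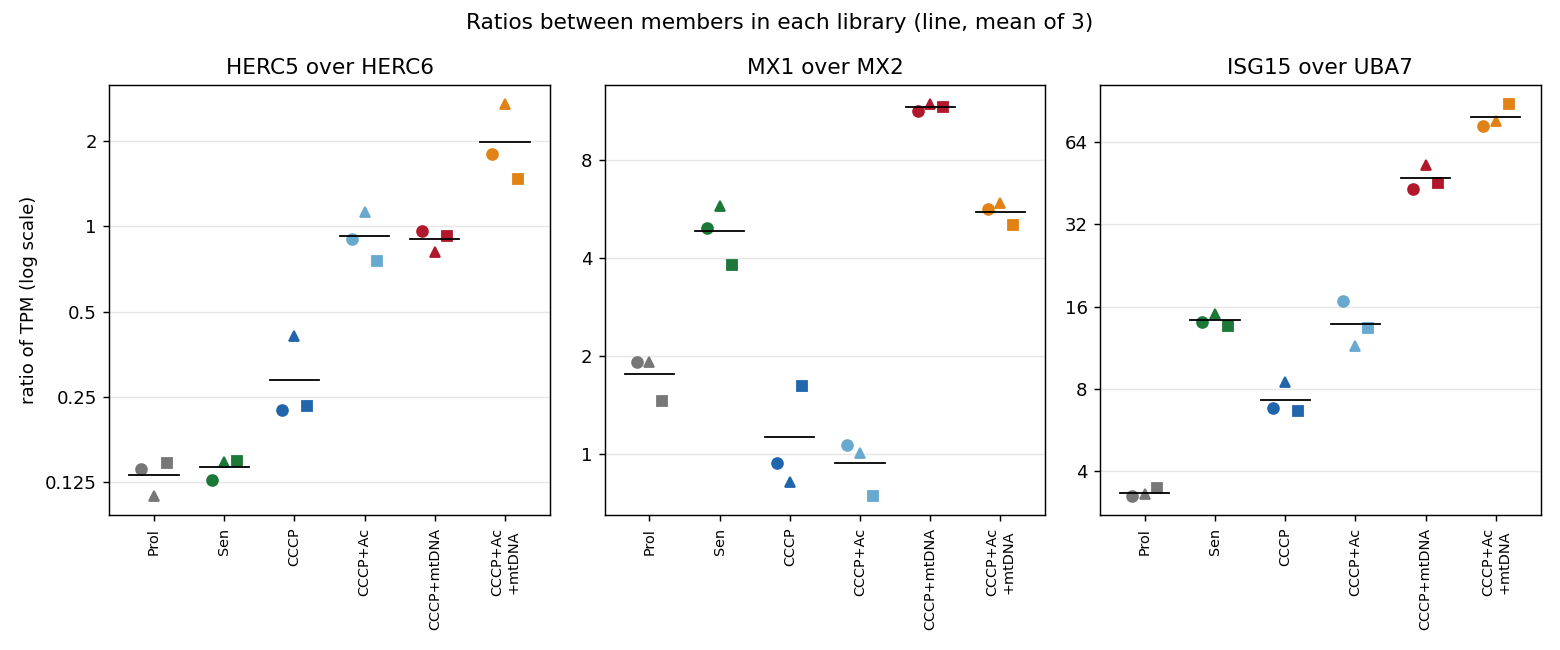
Ratios of TPM in each library on a log axis for HERC5 over HERC6, MX1 over MX2 and ISG15 over UBA7, by group, with the mean of 3 libraries as a line and the replicate number as the symbol. HERC5 over HERC6 is under 1 in Prol, Sen (IR) and Sen (IR) + CCCP and above 1 in all libraries of the combination, and the 3 libraries of the combination stay together in MX1 over MX2 and in ISG15 over UBA7.

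The upper 4 places in the order of the group means in CPM were the same in 8 genes, all but UBA7 and HERC6: mtDNA, then the combination, Sen (IR) and Prol. Several neighbours in these orders did not differ in edgeR's test. The CCCP groups with and without acetate, in the lowest places, differed only for HERC6. Prol and Sen (IR) did not differ for MX2, nor Prol and Sen (IR) + CCCP for HERC5, USP18 and RSAD2, nor the combination and Sen (IR) for BST2 and IFI44L, nor mtDNA and the combination for BST2. For HERC6 the order was mtDNA, Sen (IR), the combination, Prol, CCCP and acetate, and each neighbour differed. For UBA7 it was Prol, Sen (IR), mtDNA, the combination, CCCP and acetate, and only Prol and Sen (IR), and mtDNA and the combination, differed.

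Among other parts of the ISG15 machinery, UBE2L6, the conjugating enzyme, and TRIM25, a ligase for ISG15 and ubiquitin, rose with mtDNA, by 1.94 ± 0.15 and 1.75 ± 0.08 on the log2 scale against Sen (IR) + CCCP. ARIH1, a ligase also reported to act with UBE2L6, did not pass (0.02, edgeR adjusted p = 0.824). Over all genes, 10.7% rose in that comparison. Of these 3 tested genes, 2 fell with CCCP (UBE2L6 -0.75 and TRIM25 -0.50), where 31.3% of all genes fell. With acetate added to mtDNA UBE2L6 fell by 0.50, ARIH1 rose by 0.49 and TRIM25 was not called (-0.14). Over all genes, 29.9% fell and 4664 of 16994 rose in that comparison. With acetate alone UBE2L6 (0.37), TRIM25 (0.55) and ARIH1 (0.35) all rose, where 4902 of 16994 tested genes rose. USP41, a near-copy of USP18 whose reads could be shared with it, had 0 to 10 reads in any library and was not tested.

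Of 29 further antiviral genes, all tested, 27 rose with mtDNA against Sen (IR) + CCCP and 0 fell (0 also at an unadjusted p under 0.05), with a median of 2.89. Over all genes, 10.7% rose. The largest rises were those of CMPK2 (8.50), the neighbour of RSAD2, and IFI6 (6.25), and SLFN11 (0.05) and SERINC5 (-0.00) were not called. After CCCP, 24 fell and 1 rose against Sen (IR), NT5C3A by 0.29, where 31.3% of all genes fell. With acetate added to mtDNA, 21 fell and 2 rose (median -0.56), where 29.9% of all genes fell. Acetate alone raised 5 and lowered 2 against Sen (IR) + CCCP, where 4902 of 16994 tested genes rose and 4807 fell. In Sen (IR) against Prol, 7 rose and 3 fell (median 0.09), where 26.7% of all genes rose and 29.9% fell. Exons of other genes overlap some of the 10. An exon stretch of 351 bases, 6.20% of the exon bases of RSAD2, overlaps CMPK2 on the other strand, and 3.12% of those of MX1 overlap TMPRSS2, and since the strand setting of the counting is not stated, reads there cannot be told apart.

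Upstream of the genes, IFNB1, which encodes interferon beta, had 0 reads in all 12 libraries without mtDNA. It had 25, 32 and 28 reads with mtDNA and 4, 30 and 6 with both treatments, where replicate 2 was again the highest. Against a floor of 3 reads over the group at 0, it was at least 33.8-fold higher with mtDNA than after CCCP alone, and at least 18.1-fold higher with both than with acetate alone. Without replicate 2 of the combination the latter bound was 6.23-fold. Of 11 tested genes of this list, 6 rose with mtDNA against Sen (IR) + CCCP, where 10.7% of all genes rose. They include IFNB1, which passed the filter only through libraries with mtDNA, so its call adds nothing to the reads given above. The others include STAT2 (1.51), IRF9 (1.54), IRF7 (4.41) and CGAS (0.33). IFNL1 had at most 2 reads in a library. STING1, the adaptor downstream of cGAS, was not called with mtDNA (0.06), and it fell by 1.19 ± 0.09 where acetate was added to mtDNA (edgeR adjusted p = 4.32e-10) and by 1.25 with acetate alone. CGAS fell by 0.41 with acetate added to mtDNA, and IFNB1 (-1.05, edgeR adjusted p = 0.164) was not called. After CCCP, STING1 (0.35), CGAS (0.72), TBK1 (0.22) and IRF3 (0.18) rose in log2 fold change against Sen (IR) while STAT2, IRF9, IRF7 and both receptor chains IFNAR1 and IFNAR2 fell.

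Relatives of the 10 genes that are not known as interferon targets were set beside them: activating enzymes for other modifiers, HERC1 to HERC4, dynamins and other ubiquitin-like proteins. Of these 16 genes, 2 rose (UBA2 and UFM1) and 2 fell, HERC1 among them, with mtDNA against Sen (IR) + CCCP, by at most 0.45 on the log2 scale, and the median was -0.02. Over all genes, 10.7% rose in that comparison. With acetate alone 5 rose and 2 fell, led by the dynamin DNM1 (2.39) and by HERC4 (-0.99). Over all 16994 genes, 4902 rose and 4807 fell in that comparison.

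The genes outside the 10 whose log2(CPM + 1) followed the mean of the 10 most closely over the 18 libraries were OAS1 (r = 0.995), PARP9 (0.989), TRIM21 (0.989), PARP10 (0.987) and EPSTI1 (0.982), a description over libraries that share the 6 conditions.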

How the data were processed

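The authors removed adapters with Trimmomatic 0.36, used STAR 2.5.2b for alignment to GRCh38 and counted reads by gene with featureCounts of Subread 1.5.2 (versions from the submitters' processing notes), and the authors deposited raw counts and, for the same libraries, TPM. Reads were paired, 150 bases each. All 18 libraries entered a single edgeR 4.0.16 quasi-likelihood fit of the counts (R 4.3.3) with a mean for each of 6 groups (TMM, filterByExpr by group, Benjamini-Hochberg over 16994 genes, threshold 0.05). Standard errors were derived from the fold change and its F statistic, and CPM used TMM-scaled library sizes. The deposited TPM served only for ratios and levels between genes. Intervals of count ratios are 95% exact binomial intervals. Alternatives were DESeq2 1.42.0, RLE normalization, other filters on low counts, the compared groups alone and the replicate number as a block. Each library was also left out, only for the comparisons that hold its group. The fits were tested on simulated counts. The members, gene lists and comparisons were chosen with earlier results of these data known. STING1 was matched by its gene ID. Named genes were the 10 members, all genes of 4 fixed lists where a value is given, and the 5 genes most like the members. Values of some genes on these lists are not reported here. Ratio pairs were chosen after their values were seen. Positions are from GENCODE v44 on GRCh38 and promoter sequences from RefSeq.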

Additional observations from a re-analysis of the deposited data

Results flagged for a closer look

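TRIM25 and IFI6 passed the test of the interaction of acetate and mtDNA, so their log2 rise with mtDNA differed with and without acetate. TRIM25 had an interaction of -0.69 ± 0.11 (SE, edgeR adjusted p = 0.00249), which was -0.82 without replicate 2 of Sen (IR) + CCCP + acetate + mtDNA, with adjusted p-values of 1.48e-14 to 0.0118 over 18 alternatives. IFI6 had -2.55 ± 0.51 (edgeR adjusted p = 0.0194), which was -3.34 without that library, with adjusted p-values of 6.06e-112 to 0.0733. In CPM, IFI6 had 2.87, 2.60 and 3.52 in Sen (IR) + CCCP, 11.3, 9.40 and 10.5 with acetate, 259, 192 and 224 with mtDNA and 74.7, 249 and 80.3 with both.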

How the results depend on the processing

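The count of called genes among the 10 changed by more than 1.5 times in 3 comparisons. Leaving out single libraries gave 5 to 9 (9 with all libraries) in Sen (IR) against Prol and 0 to 7 (0 with all libraries) for the interaction of acetate and mtDNA, with the highest count without replicate 2 of the combination. With acetate alone (1 in the report) the count was 2 in DESeq2, 5 with no filter on low counts and 5 with only the groups compared, and the interaction had 8 with no filter. Over all genes, acetate alone had 9709 calls in the report and 8669 to 10488 in the alternatives other than leaving out a library. Against Sen (IR), without replicate 2 of the combination, BST2 was reversed to -1.08 and IFI44L to -0.76, and over the single libraries left out they ranged up to 1.09 and 1.08. With only the groups compared, ISG15, HERC5 and MX2 lost their calls where acetate was added to mtDNA (edgeR adjusted p = 0.0849 to 0.168), and ISG15 and USP18 in the combination against Sen (IR) (0.0559 and 0.0891). Over all genes the interaction had 112 calls, 273 in DESeq2, 413 with no filter and 55 to 403 with single libraries left out, and the combination against acetate had 2136 calls and 1241 to 1882. Requiring at least 10 counts in every library left 7 of the 10 genes (not RSAD2, BST2 and IFI44L), and all calls of those 7 kept their side of the threshold. RLE normalization changed no call. Where a call moved, the cause was not tested. The replicate numbers did not pair the libraries (45 same-numbered pairs, r of deviations -0.22 to 0.18). With the number as a block, USP18 in Sen (IR) + CCCP against Prol became called (-0.77, edgeR adjusted p = 0.0428), no other call of the 10 genes changed, and the counts of called genes were 9 (Sen (IR) against Prol), 10 (Sen (IR) + CCCP against Sen (IR)), 8 (Sen (IR) + CCCP against Prol), 1 (Sen (IR) + CCCP + acetate against Sen (IR) + CCCP), 10 (Sen (IR) + CCCP + mtDNA against Sen (IR) + CCCP), 9 (Sen (IR) + CCCP + acetate + mtDNA against Sen (IR) + CCCP), 10 (Sen (IR) + CCCP + acetate + mtDNA against Sen (IR) + CCCP + acetate), 9 (Sen (IR) + CCCP + acetate + mtDNA against Sen (IR) + CCCP + mtDNA), 8 (Sen (IR) + CCCP + mtDNA against Sen (IR)), 8 (Sen (IR) + CCCP + acetate + mtDNA against Sen (IR)), 0 (interaction of acetate and mtDNA). Depth limits BST2, RSAD2 and IFI44L after CCCP without mtDNA, with 0 to 23 reads in a library.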
